A study of Mus musculus with 10 samples.

Results

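Adar, Adarb1 and Adarb2, the 3 mouse genes for adenosine deaminases acting on double-stranded RNA, were followed across nuclei of the Hippocampus and the Cortex. They were taken by name as 3 of the 23589 rows of a table of unique molecular identifiers (UMIs, each marking 1 captured transcript), and they were picked for their pattern over brain regions and cell types. Comparisons of their levels between classes and subtypes are therefore given as a description, without a test, and the p-values of region differences, over all nuclei or within a class, are no independent evidence for the pattern. The nuclei came from microdissected, flash-frozen brain of C57BL/6 mice and were profiled with DroNc-seq, a method that barcodes the RNA of single nuclei in droplets. Each region had 5 libraries, of which those titled 0a and 0b were added together, which left 4 units per region, called here by their title numbers 0, 1, 2 and 3. The Cortex tissue was prefrontal cortex according to the protocol. The series design names 4 mice, and no label ties a number to a mouse, an age or a sex, so a p-value here reflects variation among units that may come from different mice or from library preparation alone. No animal was treated or carried a named mutation, and region is the contrast the labels give.

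Adar encodes ADAR1, which deaminates adenosine to inosine in double-stranded RNA and has a constitutive and an interferon-inducible form. The editing it makes in cellular RNA keeps sensors of viral RNA from responding to it. Adarb1 encodes ADAR2, the enzyme that recodes the glutamine codon of the AMPA receptor transcript Gria2 in neurons. Adarb2 encodes ADAR3, a brain protein with the double-stranded RNA-binding domains of its relatives and no editing activity found on tested substrates, which can compete with the active enzymes for RNA. In mouse cortex, Adarb2 is also widely used as a marker of interneurons born in the caudal ganglionic eminence, the group that includes Vip and Lamp5 cells, as opposed to the Sst and Pvalb cells of the medial eminence. The counts measure RNA of these genes and hold no measure of editing itself.

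On the GRCm38.p6 build, Adar lies at chr3:89714469-89753455, Adarb1 at chr10:77290727-77418292 and Adarb2 at chr13:8202526-8768762. The stretches around 2 start sites, from 250 bases before to 50 bases after the RefSeq start, are shown because the genes' known modes of control differ. Capitals mark TAATTA, a core read by many homeodomain proteins, in Adarb2, and GAAANNGAA, the core of the interferon-stimulated response element, in the inner start of Adar.
Adarb2 chr13:8202616-8202915, plus strand: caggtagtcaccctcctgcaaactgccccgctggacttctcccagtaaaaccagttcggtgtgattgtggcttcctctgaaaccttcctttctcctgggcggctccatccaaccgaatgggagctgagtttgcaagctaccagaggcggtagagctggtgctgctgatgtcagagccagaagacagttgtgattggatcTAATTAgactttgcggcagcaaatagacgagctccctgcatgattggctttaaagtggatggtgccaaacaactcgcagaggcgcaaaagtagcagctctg
Adar chr3:89730468-89730767, plus strand: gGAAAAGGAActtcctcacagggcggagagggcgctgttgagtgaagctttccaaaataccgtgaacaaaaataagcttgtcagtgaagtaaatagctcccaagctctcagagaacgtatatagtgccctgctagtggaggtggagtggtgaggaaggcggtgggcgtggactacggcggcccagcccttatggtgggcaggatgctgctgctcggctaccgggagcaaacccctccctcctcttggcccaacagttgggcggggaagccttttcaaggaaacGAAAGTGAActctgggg
Both motifs were sought on both strands, and no match of one overlapped a match of the other. TAATTA occurred once in the Adarb2 window and in 1738 of 32851 RefSeq windows of this length (5.29%). GAAANNGAA occurred 2 times in the Adar window and in 2812 of the 32851 (8.56%). The other Adar starts, at chr3:89714772-89715071 and chr3:89714988-89715287, and the Adarb1 window at chr10:77418224-77418523 on the minus strand held neither. The Adarb1 window was 73% G or C with 46 CpG pairs, against 52.67% with 9 pairs in the Adarb2 window. Counts per gene do not separate the starts of Adar. The Adar gene also overlaps Chrnb2, a nicotinic receptor subunit gene on the opposite strand that has its own row in the table, and the sources used here do not say whether strand entered the counting.

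In all, 11624 nuclei were used, 5658 of the Hippocampus and 5966 of the Cortex, with 1443244 to 2600788 UMIs per library. The region labels matched marker genes: Prox1, a dentate gyrus gene, stood at 118 to 145 CPM (UMIs of the gene per 1000000 UMIs) in the Hippocampus libraries and 10.02 to 12.7 CPM in the Cortex libraries, and Tbr1, a transcription factor gene of deep-layer cortical neurons, at 11.1 to 27.4 CPM in the Hippocampus and 48.4 to 58.8 CPM in the Cortex. No 2 libraries shared more than 3 cell barcodes. Libraries of number 0 stood apart: tested gene by gene against numbers 1 to 3, their counts gave a chi-square divided by its degrees of freedom of 4.27 to 4.64 in the Hippocampus and 6.50 to 7.35 in the Cortex, where sampling noise alone gives about 1, and the value was 1.36 to 1.84 between the libraries 0a and 0b and among numbers 1 to 3. Region values are therefore also given without number 0, for which each region has 1 unit. Nuclei were clustered on genes other than the 3 described here and named "-like" from marker lists that also left them out, and 20.7% of Hippocampus and 13.5% of Cortex nuclei stayed unnamed.

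Over all nuclei, Adarb2 was the member that differed between the regions. It was at 87.6, 79.1, 67.9 and 88.0 CPM in Hippocampus units 0 to 3, against 40.6, 37.5, 36.5 and 24.6 CPM in Cortex units 0 to 3. Every Hippocampus unit was above every Cortex unit. The log2 difference, Hippocampus minus Cortex, was 1.20 ± 0.15 (SE, 4 units each; edgeR quasi-likelihood test, Benjamini-Hochberg adjusted p = 0.00021), and it was 1.26 without number 0. Adar and Adarb1 did not pass, so 1 of the 3 genes was called, where 17.7% of the 12855 genes tested were called, 9.19% higher and 8.53% lower in the Hippocampus.

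Adar was at 131, 127, 108 and 104 CPM in Hippocampus units 0 to 3 and at 148, 124, 112 and 112 CPM in Cortex units 0 to 3. The ranges overlapped, and in both regions unit 0 was the highest. Its log2 difference was -0.09 ± 0.12 (approximate 95% interval -0.33 to 0.15; edgeR adjusted p = 0.673). Adarb1 was at 218, 134, 166 and 137 CPM in the Hippocampus and at 151, 153, 145 and 157 CPM in the Cortex. The Cortex units lay within a narrow band that the Hippocampus units straddled, with Hippocampus unit 0 above all others. The difference was 0.11 ± 0.14 (interval -0.16 to 0.38; edgeR adjusted p = 0.645), and without number 0 it was -0.07. In sums over all nuclei, fewer nuclei of a type and less RNA per nucleus cannot be told apart, so the same genes were followed within classes.

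**Figure D1:**
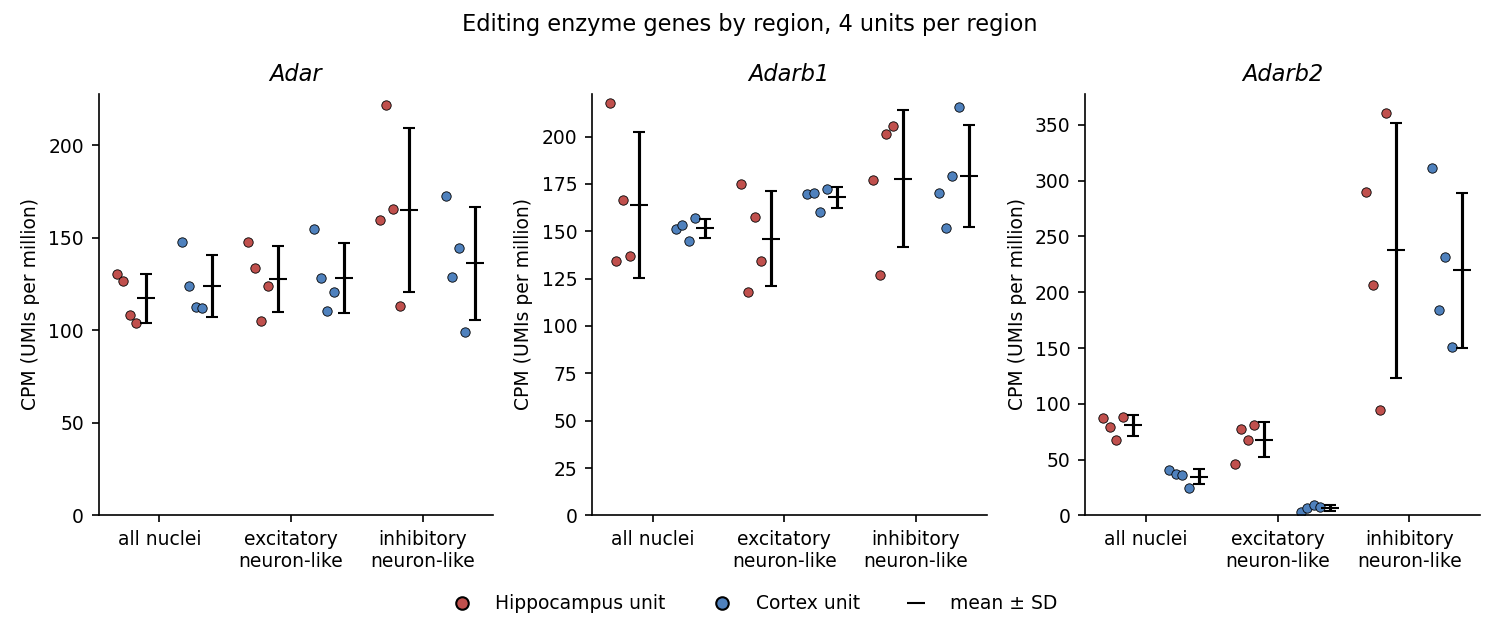
CPM (UMIs per 1000000) of Adar, Adarb1 and Adarb2 (vertical axes) in all nuclei, excitatory neuron-like and inhibitory neuron-like nuclei of each region; points are the 4 units per region, and the line beside them is the mean ± SD. Adarb2 separates the regions in all nuclei and in excitatory neuron-like nuclei, where Hippocampus units lie at 45.9 to 80.9 CPM and Cortex units at 3.21 to 9.08 CPM, and overlaps in inhibitory neuron-like nuclei.

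Within excitatory neuron-like nuclei, the region difference of Adarb2 was wider. It was at 45.9, 77.0, 67.3 and 80.9 CPM in Hippocampus units 0 to 3, against 3.21, 6.45, 9.08 and 7.36 CPM in Cortex units 0 to 3. The groups were far apart, with the lowest Hippocampus value in unit 0. The log2 difference was 3.45 ± 0.29 (4 units each; edgeR adjusted p = 4.83e-06) and 3.32 without number 0, and 16.5% of the 10842 genes tested in this class were called, 8.86% higher and 7.64% lower in the Hippocampus. The class was made of different clusters in each region: dentate granule-like, CA1-like and CA3-like nuclei made up most of it in the Hippocampus, and layer 2-4-like, layer 5-like and layer 6-like nuclei in the Cortex.

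Adar and Adarb1 showed no such separation in excitatory neuron-like nuclei. Adar averaged 127.5 ± 17.9 CPM in the Hippocampus and 128.5 ± 18.9 CPM in the Cortex (SD, n = 4 units each), a log2 difference of 0.02 ± 0.14 (interval -0.26 to 0.30; edgeR adjusted p = 0.959). Adarb1 was at 175, 118, 157 and 134 CPM in the Hippocampus and at 169.9, 170.0, 160.0 and 172.2 CPM in the Cortex. Hippocampus unit 0 was above all 4 Cortex units and the other Hippocampus units were below them. The log2 difference of Adarb1 was -0.17 ± 0.13 (interval -0.42 to 0.08; edgeR adjusted p = 0.454), and -0.26 ± 0.10 without number 0 (adjusted p = 0.0515).

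The excitatory difference of Adarb2 sat in dentate granule-like nuclei, the granule cells through which entorhinal input enters the hippocampus. These 1193 nuclei held 238 Adarb2 UMIs, at 160.1, 155.4, 151.8 and 174.0 CPM in units 0 to 3 (160.3 ± 9.76, SD, n = 4). The units were close together, and all stood above every unit of the pyramidal subtypes named here. CA1-like nuclei, the output pyramidal cells, had 8.55, 27.3, 5.93 and 13.3 CPM. CA3-like nuclei, the targets of granule cell axons, had 1 Adarb2 UMI among 599722 UMIs, in unit 1. With dentate granule-like nuclei set aside, the other excitatory neuron-like nuclei of the Hippocampus had 3.59, 16.0, 2.38 and 6.00 CPM of Adarb2, against 3.21, 6.46, 9.09 and 7.36 CPM in the Cortex. These groups overlapped fully. The counts behind them were 15 UMIs of 2471809 in the Hippocampus and 40 of 6678417 in the Cortex, too few for Adarb2 to pass the expression filter of the edgeR fit without dentate granule-like nuclei.

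Cortical projection neuron-like nuclei were low in Adarb2 wherever they were dissected. Layer 2-4-like nuclei of the Cortex averaged 5.62 ± 3.54 CPM, layer 6-like nuclei 9.52 ± 1.47 CPM and layer 5-like nuclei had 1 UMI of 685985 in all (SD, n = 4 units). The Hippocampus libraries held 223 layer 2-4-like nuclei, 203 of them in unit 0, and none of their 628221 UMIs was from Adarb2, which allows up to 4.78 CPM. Every layer 6 unit of the Cortex, from 9 UMIs in all, was above every CA3 unit and every layer 5 unit of the Cortex. The pooled intervals overlapped, at 4.37 to 18.1 CPM for layer 6, 0.0422 to 9.29 CPM for CA3 and 0.0369 to 8.12 CPM for layer 5. Layer 2-4 units, from 19 UMIs in all, overlapped the units of each of these subtypes.

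Adarb1 had a different order among the same subtypes. CA3-like nuclei were highest, at 242.3, 197.7, 205.6 and 192.7 CPM in units 0 to 3, and CA1-like nuclei lowest, at 59.8, 81.8, 65.2 and 79.9 CPM. All 4 CA3 units were above all 4 CA1 units, and the averages were 209.6 ± 22.5 CPM and 71.7 ± 10.8 CPM. Dentate granule-like nuclei lay between them with 177, 106, 183 and 127 CPM. In the Cortex, layer 2-4-like nuclei averaged 181.1 ± 8.18 CPM, layer 6-like nuclei 172.1 ± 21.4 CPM and layer 5-like nuclei 141.6 ± 12.5 CPM. Layers 2-4 and 6 overlapped, while every layer 5 unit was below every layer 2-4 unit. CA1 was the subtype whose units fell below all units of each of the others.

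Adar varied less than Adarb1 over the excitatory subtypes. CA1-like nuclei were again the lowest, at 76.9, 60.0, 83.0 and 84.3 CPM (76.1 ± 11.2). CA3-like nuclei averaged 135.0 ± 38.5 CPM, dentate granule-like nuclei 124.9 ± 34.4 CPM, and in the Cortex layer 2-4-like nuclei 139.4 ± 10.2 CPM, layer 5-like nuclei 134.7 ± 65.2 CPM and layer 6-like nuclei 123.7 ± 31.0 CPM (SD, n = 4 units each). These last 5 differed by less than the spread of their units. All CA1 units were below all units of the others except 1 layer 5 unit, at 75.9 CPM.

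**Figure D2:**
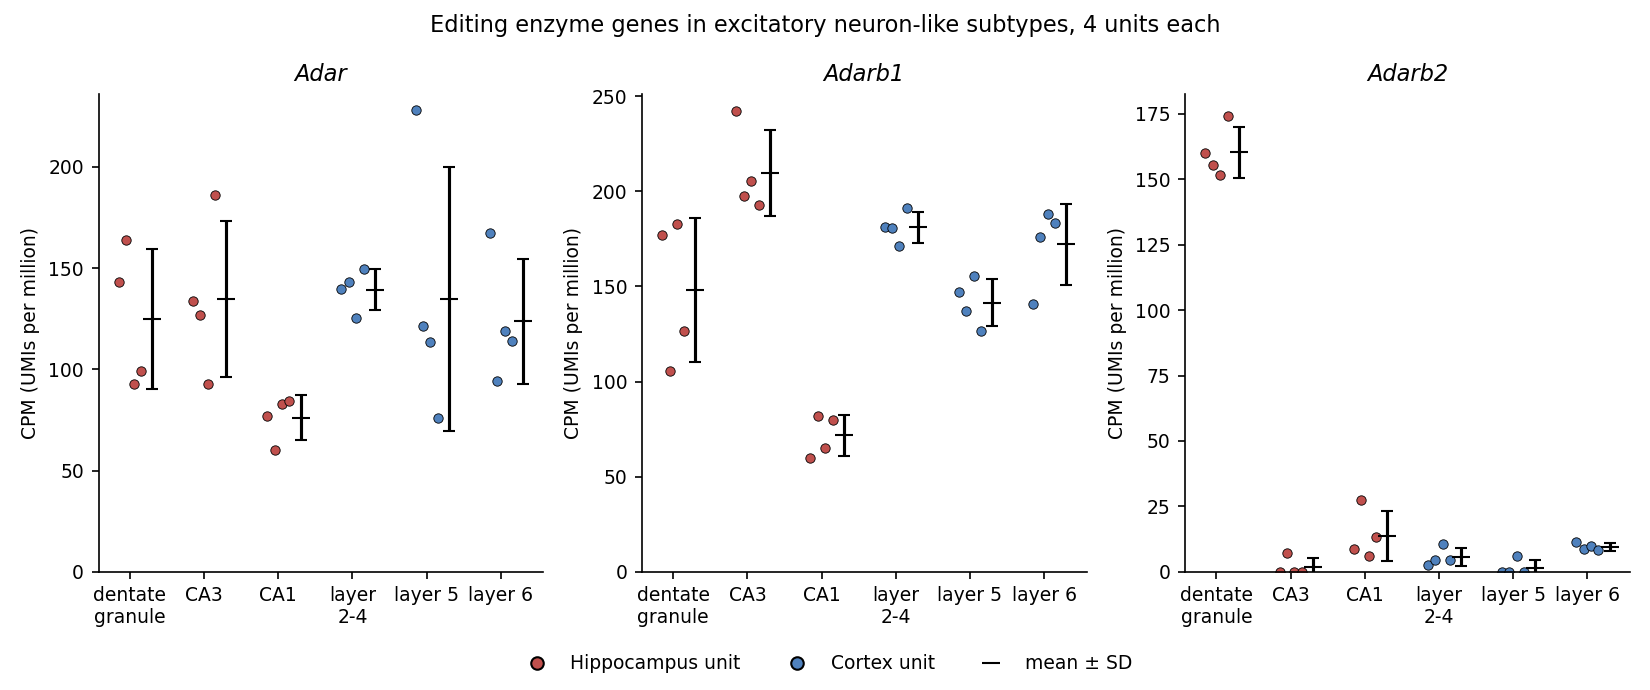
CPM (UMIs per 1000000) of Adar, Adarb1 and Adarb2 (vertical axes, each with its own scale) in excitatory neuron-like subtypes of the Hippocampus (dentate granule, CA3, CA1) and the Cortex (layers 2-4, 5 and 6); points are the 4 units and the line beside them is the mean ± SD. Adarb2 is at 151.8 to 174.0 CPM in dentate granule-like nuclei and at most 27.3 CPM elsewhere, and Adarb1 and Adar are lowest in CA1-like nuclei.

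In inhibitory neuron-like nuclei, Adarb2 did not separate the regions. It was at 289, 206, 94.7 and 360 CPM in Hippocampus units 0 to 3, from 201 nuclei and 105 UMIs, and at 311, 184, 232 and 151 CPM in Cortex units 0 to 3, from 571 nuclei and 258 UMIs. The groups overlapped, and the Hippocampus units had both the lowest and the highest value. The log2 difference was 0.18 ± 0.26 (interval -0.34 to 0.69; edgeR adjusted p = 0.929), and 0.34 ± 0.26 without number 0. Adar, at 165.1 ± 44.5 CPM in the Hippocampus and 136.3 ± 30.6 CPM in the Cortex, differed by 0.25 ± 0.27 (edgeR adjusted p = 0.905). Adarb1, at 177.7 ± 36.2 CPM and 179.3 ± 26.8 CPM in the Hippocampus and Cortex, differed by 0.05 ± 0.24 (edgeR adjusted p = 0.986). None of the 3 genes was called, and 0.105% of the 4756 genes tested in this class were, 5 in all. At an unadjusted p under 0.05 none of the 3 was called either, and DESeq2 called none.

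The Adarb2 region effect itself differed between the neuron classes. With both classes in 1 model and a block for each unit, the region effect in inhibitory minus that in excitatory neuron-like nuclei was -3.29 ± 0.30 for Adarb2 (edgeR adjusted p = 3.15e-23, a description of the fit, since the genes were picked for their pattern over regions and classes). The effect was larger in the excitatory class, where all 4 Hippocampus units were above all 4 Cortex units. Of 9836 genes tested, 3.41% were called in this comparison, 1.2% with a positive and 2.21% with a negative sign. For Adar the same term was 0.17 ± 0.26 (adjusted p = 0.876) and for Adarb1 0.14 ± 0.24 (adjusted p = 0.897). Without the block the Adarb2 term was -3.31 ± 0.45 (adjusted p = 0.000105).

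Among inhibitory subtypes, Adarb2 UMIs fell to Vip-like, Cnr1/Cck-like and Lamp5/Reln-like nuclei. Few units had 20 nuclei of these, so UMIs were pooled over the units of a region and exact 95% intervals, which cover counting error alone, are given. Vip-like nuclei, the interneurons that mainly contact other interneurons, had 27 Adarb2 UMIs of 29034 in the Hippocampus (930 CPM, 613 to 1353) and 62 of 101677 in the Cortex (610 CPM, 468 to 782). Cnr1/Cck-like nuclei, basket cells with the cannabinoid receptor, had 27 of 34177 in the Hippocampus (790 CPM, 521 to 1149) and 71 of 43256 in the Cortex (1641 CPM, 1282 to 2070). Lamp5/Reln-like nuclei, neurogliaform-type cells, had 483 CPM in the Hippocampus (303 to 731) and 485 CPM in the Cortex (353 to 651). The intervals of the regions overlapped for Vip and Lamp5/Reln and not for Cnr1/Cck, which rests on 15 nuclei of the Hippocampus and 23 of the Cortex.

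Sst-like nuclei, which target dendrites, and Pvalb-like nuclei, fast-spiking basket cells, held few Adarb2 UMIs. In Sst-like nuclei there was no Adarb2 UMI among 59437 in the Hippocampus, which allows up to 50.5 CPM, and 1 among 133685 in the Cortex. In Pvalb-like nuclei there were 2 among 29246 in the Hippocampus (68.4 CPM, 8.28 to 247). There were none among 156178 in the Cortex, which allows up to 19.2 CPM. Summed, the Vip, Cnr1/Cck and Lamp5/Reln subtypes had 699 CPM (551 to 875; 61 nuclei) in the Hippocampus and, by Cortex unit 0 to 3, 1015, 618, 734 and 500 CPM (143 nuclei). The Sst and Pvalb subtypes together had 2 UMIs of 88683 in the Hippocampus and, by Cortex unit, 0, 0, 14.7 and 0 CPM. Cortex units of the first group were all above those of the second. A further 84 Hippocampus and 202 Cortex inhibitory neuron-like nuclei had no subtype name and held 27 and 80 Adarb2 UMIs in the Hippocampus and the Cortex.

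Interneuron genes listed beside Adarb2 are given for the pooled nuclei of both regions, and some of them were among the markers that named the subtypes. Vip was at 2563 CPM in Vip-like nuclei, where Adarb2 was at 681 CPM and no UMI of Lhx6, a transcription factor gene of the medial eminence lineage, was seen. Sst-like nuclei had Sst at 2237 CPM, Lhx6 at 104 CPM and Adarb2 at 5.18 CPM. Pvalb-like nuclei had Satb1, another gene of that lineage, at 178 CPM and Adarb2 at 10.8 CPM. Other listed genes did not follow that split: Npas1 was at 161 CPM in Vip-like and 150 CPM in Sst-like nuclei, and no Prox1 UMI was seen in Cnr1/Cck-like nuclei. Sst was at 313 CPM in Pvalb-like nuclei, above the 291 CPM of Pvalb itself, and at 517 CPM in Cnr1/Cck-like nuclei.

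The active enzymes' genes did not show that split. In the Cortex, Adarb1 was at 196, 322 and 174 CPM in the 3 units with 20 or more Pvalb-like nuclei, and at 68.7, 76.4, 109 and 138 CPM in the 4 units of Sst-like nuclei. The Pvalb units were all above the Sst units. Adar was at 128.9 ± 51.5 CPM (n = 3) in Pvalb-like and 130.0 ± 73.2 CPM (n = 4) in Sst-like nuclei of the Cortex. Over the Vip, Cnr1/Cck and Lamp5/Reln subtypes of the Cortex, Adar averaged 170.1 ± 103.0 CPM and Adarb1 155.3 ± 67.8 CPM, against 137.5 ± 24.6 CPM and 177.2 ± 39.3 CPM in Sst and Pvalb nuclei together, and the units overlapped for both genes.

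To set shares of nuclei side by side, each nucleus was thinned to 500 UMIs. An Adarb2 UMI was then found in 7.47% of dentate granule-like nuclei (exact interval 6.02% to 9.15%), against 0 of 185 CA3-like nuclei, which allows up to 1.62%, and 0.199% of layer 2-4-like nuclei of the Cortex. Before thinning the shares were 15.9%, 0.541% and 0.893%, at median depths of 1083, 2968 and 1320 UMIs per nucleus. The dentate share was the higher at the lowest of these depths. Free RNA in the droplets gives UMIs to nuclei that do not express a gene, and its level was not measured directly. CA3-like nuclei, the deepest of these groups, had the lowest share and do not set that level. Unnamed Hippocampus nuclei led by mt-Rnr2 and mt-Rnr1 had 49.4 CPM of Adarb2 (28.2 to 80.2) from 16 UMIs. Those led by hemoglobin genes had 61.3 CPM (22.5 to 133) from 6 UMIs, against 161 CPM (141 to 183) in dentate granule-like nuclei. CA1-like nuclei, at 1.37% (0.446% to 3.17%), were within the limit that CA3-like nuclei allow. Before thinning, 2.4% of CA1-like nuclei had an Adarb2 UMI at a median depth of 1704 UMIs, and their pooled level was 14.4 CPM (6.91 to 26.5), against 1.67 CPM (0.0422 to 9.29) in CA3-like nuclei.

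Among interneurons the thinned shares were 33.3% (11.8% to 61.6%) of Cnr1/Cck-like nuclei in the Hippocampus and 52.2% (30.6% to 73.2%) in the Cortex. Vip-like nuclei had 45% (23.1% to 68.5%) in the Hippocampus and 21.5% (12.3% to 33.5%) in the Cortex, and Lamp5/Reln-like nuclei 25.0% and 18.2%. Sst-like nuclei had 0 of 33 in the Hippocampus and 0 of 99 in the Cortex, which allow up to 9.09% and 3.03%, and Pvalb-like nuclei 2 of 21 in the Hippocampus and 0 of 127 in the Cortex. Before thinning, 76.2% of Vip-like nuclei of the Hippocampus and 50.8% of those of the Cortex had an Adarb2 UMI, and 0% and 1.01% of Sst-like nuclei. Median depths of these subtypes were 1190 and 1449 UMIs for Vip and 1225 and 1090 UMIs for Sst, in the Hippocampus and the Cortex.

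**Figure D3:**
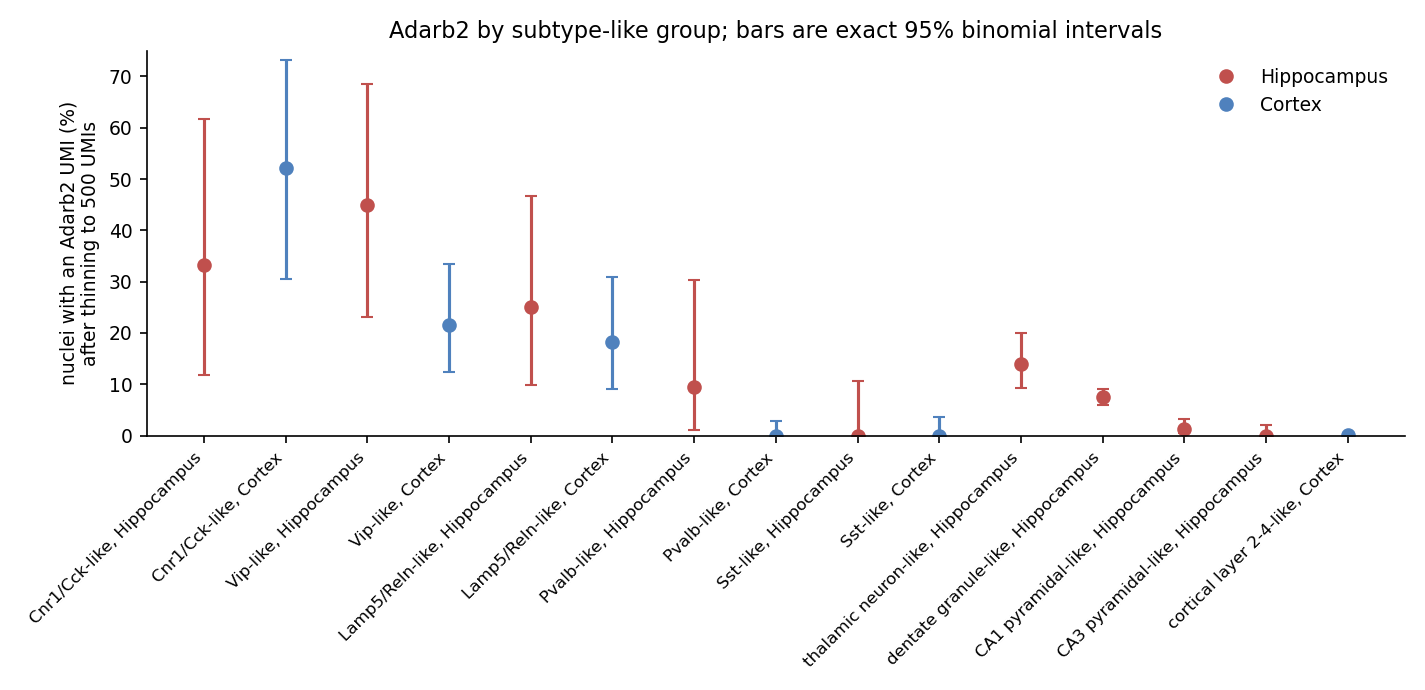
Share of nuclei (%) with at least 1 Adarb2 UMI after thinning every nucleus to 500 UMIs, by subtype-like group and region; points are shares over pooled units and bars are exact 95% binomial intervals. Cnr1/Cck-like, Vip-like and Lamp5/Reln-like nuclei lie at 18.2% to 52.2%, thalamic neuron-like nuclei at 14.04% and dentate granule-like nuclei at 7.47%, and CA3-like nuclei, Sst-like nuclei and Pvalb-like nuclei of the Cortex had none.

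The Hippocampus libraries also held 185 thalamic neuron-like nuclei, whose leading genes include Prkcd, Ntng1 and Tcf7l2, and 348 midbrain neuron-like nuclei, which had 0 and 20 counterparts in the Cortex. Of the thalamic neuron-like nuclei, 74.6% came from unit 0. Adarb1 was highest there of all groups, with 420 UMIs of 526438 (798 CPM, 723 to 878), at 795, 667, 1040 and 652 CPM in units 0 to 3, of which units 1 to 3 had 12 to 18 nuclei each. The level was thus alike in the unit that gave most of the nuclei and in the others. Adarb2 was at 321 CPM (274 to 373) and Adar at 169 CPM (136 to 208) in the same nuclei. In midbrain neuron-like nuclei Adarb1 was at 271, 233, 159 and 196 CPM and Adarb2 at 181, 97.5, 90.8 and 74.5 CPM in units 0 to 3, and unit 0 was the highest for both.

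These nuclei bear on the sums over the whole tissue. Without thalamic neuron-like and midbrain neuron-like nuclei, the region difference of Adarb2 over all nuclei was 0.95 ± 0.19 (edgeR adjusted p = 0.00306), and with dentate granule-like nuclei also left out it was 0.24 ± 0.20 (adjusted p = 0.478). For Adarb1 the difference was -0.25 ± 0.11 (adjusted p = 0.133) and -0.32 ± 0.11 (adjusted p = 0.0548) under the same omissions. The sign of the Adarb1 difference turned, without passing the threshold, and that of Adarb2 was kept.

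The share of each gene's UMIs by class gives the same view by source. In the Hippocampus, 33.2% of the 718 Adarb2 UMIs came from dentate granule-like nuclei, which were 21.1% of nuclei, 23.5% from thalamic neuron-like nuclei, which were 3.27%, and 14.6% from inhibitory neuron-like nuclei, which were 3.55%. In the Cortex, 62.3% of the 414 Adarb2 UMIs came from inhibitory neuron-like nuclei, which were 9.57% of nuclei, and 9.66% from excitatory neuron-like nuclei, which were 64.0%. Adarb1 UMIs came mainly from thalamic neuron-like nuclei (27.4%) and excitatory neuron-like nuclei other than dentate granule (24.6%) in the Hippocampus, and from excitatory neuron-like nuclei (64.2%) in the Cortex. Adar followed the bulk of the RNA more closely: dentate granule-like nuclei held 17.7% of its UMIs and 17.1% of all UMIs in the Hippocampus.

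**Figure D4:**
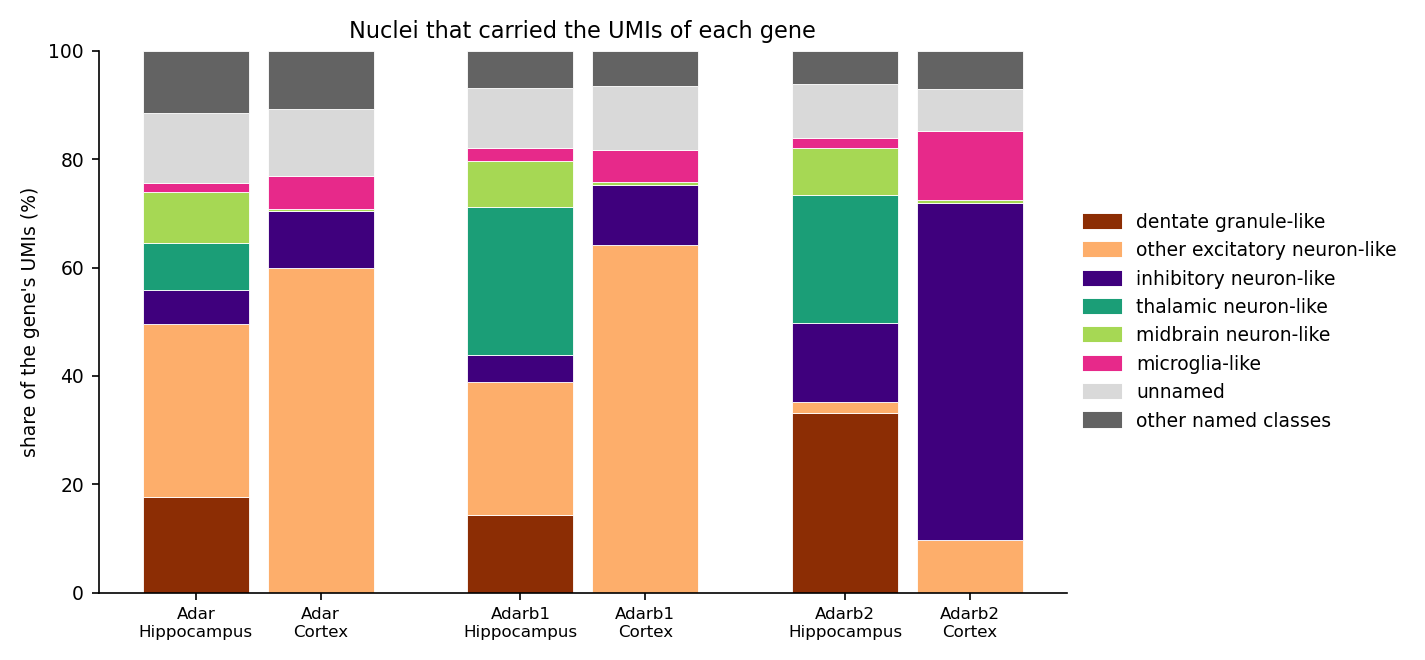
Share (%) of the UMIs of Adar, Adarb1 and Adarb2 that came from each class of nuclei, in the Hippocampus and the Cortex; each bar adds up all UMIs of that gene in that region. Adarb2 UMIs were mostly from dentate granule-like, thalamic neuron-like and inhibitory neuron-like nuclei in the Hippocampus and from inhibitory neuron-like nuclei (62.3%) in the Cortex.

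Adarb1 was low in astrocyte-like and endothelial-like nuclei. Astrocyte-like nuclei averaged 44.2 ± 18.3 CPM of Adarb1 in the Hippocampus and 48.0 ± 18.2 CPM in the Cortex, and endothelial-like nuclei 34.1 ± 19.4 CPM and 38.7 ± 24.5 CPM in the Hippocampus and the Cortex (SD, n = 4 units each). Every unit of both classes was below every unit of dentate granule-like, CA3-like and layer 2-4-like nuclei. Adar averaged 72.5 ± 15.0 CPM in astrocyte-like nuclei of the Hippocampus and 132.4 ± 72.3 CPM in those of the Cortex, and 68.9 ± 20.8 CPM and 73.4 ± 33.8 CPM in endothelial-like nuclei. None of the 3 genes passed the expression filter in the astrocyte-like fit, where 5% of the 2418 genes tested were called. In endothelial-like nuclei an exact two-sided permutation test over units, which cannot go below 0.0286 with 4 against 4, gave p = 1 for Adar and 0.143 for Adarb2, and over the 3 genes the smallest adjusted p was 0.429.

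Oligodendrocyte-like nuclei of the Hippocampus were the lowest in Adar of the classes with 4 units. Their 300 nuclei had 5 Adar UMIs of 254065 (19.7 CPM, 6.39 to 45.9), all in unit 0. They gave 0.478% of the region's Adar UMIs and 2.93% of all its UMIs. Adarb1 averaged 43.8 ± 35.3 CPM in them and Adarb2 was at 47.3, 80.9, 29.6 and 63.2 CPM in units 0 to 3. Without nuclei called doublets, the Adarb2 level of these nuclei was 30.6 CPM. The Cortex had 18 such nuclei, too few to set beside them.

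Microglia-like and oligodendrocyte precursor-like nuclei held some Adarb2 UMIs, and the part of free RNA in them was not tested. In the Hippocampus they had 71.7 CPM (38.2 to 123) and 72.5 CPM (34.8 to 133) pooled. These intervals overlap that of unnamed nuclei led by mt-Rnr2 and mt-Rnr1 (28.2 to 80.2). In the Cortex they had 75.3 CPM (56.4 to 98.5) and 90.5 CPM (53.6 to 143), above those unnamed nuclei (6.37 to 45.8). Microglia-like nuclei of the Cortex had 43.6, 171, 90.5 and 34.9 CPM in units 0 to 3, with unit 1 far above unit 3, and averaged 70.0 ± 37.0 CPM without nuclei called doublets. Precursor-like nuclei averaged 77.0 ± 31.9 CPM in the Hippocampus and 82.9 ± 88.8 CPM in the Cortex (SD, n = 3 units each). Adar and Adarb1 in microglia-like nuclei of the Cortex were at 123.2 ± 18.1 CPM and 135.4 ± 29.98 CPM. Adarb2 in astrocyte-like nuclei was at 34.9, 6.77, 0 and 17.4 CPM in the Hippocampus and 1 UMI of 316353 in the Cortex.

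Each gene was also taken by its order over the groups named here. Adarb2 ran from Cnr1/Cck-like, Vip-like and Lamp5/Reln-like nuclei through thalamic neuron-like and dentate granule-like nuclei to midbrain neuron-like nuclei. Pyramidal, layer, Sst-like, Cortex Pvalb-like, endothelial-like and Cortex astrocyte-like nuclei were at the end. Hippocampus Pvalb-like nuclei, with 2 UMIs (8.28 to 247 CPM), could not be placed. Dentate granule-like units (151.8 to 174.0 CPM) were below the highest midbrain unit, above the other 3 midbrain units and above every CA1 unit. Adarb1 ran from thalamic neuron-like nuclei down to CA3-like, midbrain neuron-like and Cortex Pvalb-like nuclei, whose units overlapped. Then came the cortical layers and dentate granule-like nuclei, then CA1-like nuclei, with astrocyte-like, oligodendrocyte-like and endothelial-like nuclei last and overlapping. Not every non-neuronal group was low in Adarb1. Pooled Hippocampus microglia-like nuclei had 204 CPM (144 to 281) and choroid plexus-like nuclei 193 CPM (99.6 to 337), near CA3-like and midbrain neuron-like nuclei. Microglia-like units of the Cortex (107 to 178 CPM) overlapped those of the layers. Adar ran over a shorter range, with layer 5-like and layer 6-like nuclei found in the Hippocampus libraries highest of the groups with 4 units (187.0 ± 35.0 CPM and 180.0 ± 37.0 CPM), most neurons overlapping, CA1-like, astrocyte-like and endothelial-like nuclei of the Hippocampus lower, and oligodendrocyte-like nuclei at the end.

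Over 19 groups of at least 100 nuclei (region by class or subtype), the genes whose log2 levels ran most like each member were taken from 12930 genes. For Adar they were Plekhb2, Ube2o, Klc2, Mapkbp1 and Habp4, with Pearson r of 0.92, 0.88, 0.88, 0.87 and 0.86. For Adarb1, Reep2, Slc7a8, Iqce and Herc1 were among them, with r of 0.90, 0.89, 0.89 and 0.88, each highest in thalamic neuron-like nuclei. For Adarb2 they were Thsd7a, Prox1, Shox2, Tex15 and Ntng1, with r of 0.82, 0.81, 0.76, 0.76 and 0.74, after 2 predicted genes were passed over. Prox1 was highest in dentate granule-like nuclei, at 445 CPM, and the other 4 in thalamic neuron-like nuclei. The 19 groups left out Vip-like, Cnr1/Cck-like and Lamp5/Reln-like nuclei, where Adarb2 was highest, and Sst-like nuclei, all with fewer than 100 nuclei per region. Pvalb-like nuclei of the Cortex, with no Adarb2 UMI, were the only inhibitory subtype used. The thalamic neuron-like values rest on 1 unit. The groups share libraries and depth and are not independent, so these r are a description without a test.

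Other genes of the editing pathway were counted from lists. Of 13 other deaminases acting on RNA and their cofactors, 4 were measured well enough to test over all nuclei. Of these edgeR called none, against the 17.7% called over all genes, with 1 at an unadjusted p under 0.05 and none by DESeq2. Of 24 genes for proteins that bind, import, modify or modulate ADAR enzymes, all were tested and 1 was higher and 2 were lower in the Hippocampus, against the 17.7% called over all genes, and the list's median log2 difference was -0.06 beside -0.01 for all genes. Srsf9, a splicing factor that lowers ADAR2 editing at some sites, was at 127.5 ± 26.2 CPM in the Hippocampus and 88.6 ± 7.31 CPM in the Cortex (log2 difference 0.50 ± 0.15, edgeR adjusted p = 0.0353). Drosha, the nuclease that cuts primary microRNAs, was at 79.0 ± 16.5 CPM in the Hippocampus and 124 ± 15.6 CPM in the Cortex (-0.64, adjusted p = 0.0071). Units of the regions overlapped for Srsf9 and not for Drosha.

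In excitatory neuron-like nuclei 2 of the 24 modulators were higher and none lower in the Hippocampus, against the 16.5% called over all genes. Srsf9 was at 177.9 ± 31.3 CPM in the Hippocampus and 95.7 ± 8.81 CPM in the Cortex (0.92 ± 0.15, edgeR adjusted p = 0.000783), with no overlap of units, and Hnrnpd, an RNA-binding protein gene, at 142 ± 22.7 CPM and 102 ± 3.93 CPM in the Hippocampus and Cortex (0.51, adjusted p = 0.0228). Of 18 genes for double-stranded RNA sensors and the interferon response, 10 were tested over all nuclei, of which none was called higher and 1 was called lower in the Hippocampus by edgeR and 1 by DESeq2, against the 17.7% called over all genes, with 2 at an unadjusted p under 0.05. The list's median log2 difference there was 0.30 beside -0.01 for all genes.

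Of 24 genes whose transcripts carry known recoding sites, 2 were higher and 4 lower in the Hippocampus over all nuclei. In excitatory neuron-like nuclei 3 were higher and 4 lower. The shares of the list were above the 17.7% and 16.5% called over all genes, but this was not tested. The list was not matched to all genes in level, and it holds abundant transcripts such as that of Gria2. The list's median log2 difference was -0.08 over all nuclei and -0.00147 in excitatory neuron-like nuclei. AMPA receptor subunit genes moved in different directions in excitatory neuron-like nuclei. Gria2 was at 3782 ± 219 CPM in the Hippocampus and 2931 ± 76.2 CPM in the Cortex (0.40, edgeR adjusted p = 0.00204), Gria3 at 946 ± 67.4 CPM and 1305 ± 64.0 CPM (-0.43, adjusted p = 0.00239) and Gria4 at 119 ± 95.9 CPM and 349 ± 35.8 CPM (-1.47, adjusted p = 0.00919), each in the Hippocampus and the Cortex. Units of the regions did not overlap for any of these. Gabra3, a subunit of the GABA-A receptor, was at 24.3 ± 11.3 CPM in the Hippocampus and 74.4 ± 8.29 CPM in the Cortex (-1.53, adjusted p = 0.000638).

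Over all nuclei Gria3, Gria4 and Gabra3 were lower in the Hippocampus too, by log2 differences of -0.69, -0.80 and -1.15 (edgeR adjusted p = 6.71e-05, 0.000971 and 0.000339). Htr2c, the serotonin receptor gene whose transcript is edited at several codons, was at 27.7 ± 10.8 CPM in the Hippocampus and 6.75 ± 1.91 CPM in the Cortex (2.11, adjusted p = 0.000307). Htr2c was among the leading genes of the choroid plexus-like cluster, 26 nuclei all of the Hippocampus, and the part of those nuclei in its level was not tested. In inhibitory neuron-like nuclei edgeR called none of the 2 deaminases, 20 modulators, 2 sensors and 20 recoded genes tested, and DESeq2 none. Of all 4756 genes tested in this class 0.105% were called, so these counts say little about the lists. At an unadjusted p under 0.05 there were 0, 1, 0 and 2, with no share over all genes to set beside them.

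Of 18 interneuron class genes set beside Adarb2, 16 were tested over all nuclei, of which 1 was higher and 3 were lower in the Hippocampus, and 9 in excitatory neuron-like nuclei, of which 2 were higher and 4 lower, where 17.7% and 16.5% of all genes tested were called in these comparisons. Prox1, which like Adarb2 is used as a marker of caudal eminence interneurons, was higher in the Hippocampus in both, at 178 ± 22.5 CPM in excitatory neuron-like nuclei of the Hippocampus and 3.38 ± 1.80 CPM in those of the Cortex (log2 difference 5.79, edgeR adjusted p = 5.5e-09). Vip, Lamp5 and Cnr1 were lower in the Hippocampus over all nuclei, by log2 differences of -1.58, -1.68 and -1.26 (edgeR adjusted p = 0.0132, 0.00135 and 5.67e-05). In excitatory neuron-like nuclei Lamp5 and Cnr1 were also lower, by -1.53 and -1.17 (edgeR adjusted p = 0.0129 and 0.00038), and Vip, at -0.91, was not called. In inhibitory neuron-like nuclei Vip, Lamp5 and Cnr1 differed by -0.49, -0.17 and -0.08, and none was called. Over all nuclei, Adarb2 was thus higher in the Hippocampus beside lower Vip and Lamp5. Of the 10 interneuron class genes tested in inhibitory neuron-like nuclei edgeR called none, where 0.105% of all 4756 genes tested were called. DESeq2 called none either. At an unadjusted p under 0.05 there were 2, a count with no share over all genes to set beside it.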

How the data were processed

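Nuclei from 10 DroNc-seq libraries were analysed from a deposited table of raw UMI counts per gene and nucleus. Per the submitters' processing notes, STAR 2.4.0a24, Seurat and mm10 were used, and the handling of introns and strand in counting was not given in the sources used here. Columns were tied to libraries by title, and 1689 columns that matched no label were not used. No further filter on nuclei was set. Library totals were 1443244 to 2600788 UMIs, and their size limits the precision of low counts.

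Counts were scaled to 10000 per nucleus and clustered with scanpy 1.11.5 and leidenalg 0.10.2 on 2000 variable genes without Adar, Adarb1 and Adarb2 (genes in at least 10 nuclei, 40 components, 20 neighbours, resolution 2.0). Clusters were named from marker lists by score (at least 0.45, margin 0.15, at least 3 markers), and these thresholds were set after the data were seen. Simulated doublets, called at 0.8 of 30 neighbours, marked 924 nuclei (7.95%), which were kept and removed as an alternative. Levels are UMIs per 1000000 (CPM) in summed nuclei, with 20 nuclei required per unit.

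Sums per unit were tested with edgeR 4.0.16 in R 4.3.3 (quasi-likelihood, TMM, filterByExpr, adjusted p under 0.05 over all genes tested). DESeq2 1.42.0 and other settings were alternatives. On counts simulated for the real genes, fold changes of log2 1 and 2 were recovered in 79% and 96% of changed genes for all nuclei and in 44% and 94% for inhibitory neuron-like nuclei, and 8.85% and 4.17% of the calls were false for all nuclei and inhibitory neuron-like nuclei, and 6.52% for excitatory neuron-like nuclei. Intervals of shares are exact Clopper-Pearson at 95%, a count of 0 allows up to 3 counts, and both cover counting error only. The approximate intervals of log2 differences come from their SE.

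The 3 genes are given throughout, along with the 5 genes most correlated with each and up to 4 called genes per list by smallest p. The members and lists were chosen with earlier results of these data known. The labels do not tie title numbers to mice, so no block entered the region fits. In a check over all nuclei, same-numbered units of the 2 regions correlated at 0.43 for number 0 and at 0.02 to 0.10 for the others. Number 0 correlated at -0.24 to -0.15 with units of other numbers. Some genes that these rules select are not reported here.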

Additional observations from a re-analysis of the deposited data

Results flagged for a closer look

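In 10 of 78 groups of 4 units, some of which share nuclei, 1 unit lay far from the other 3. In 9 of these the other 3 units were at 0, where any UMI in the remaining unit sets the flag. The count of flags is therefore not set against a chance rate. Adarb2 was at 7.06 CPM in CA3-like unit 1, 3.45 CPM in endothelial-like unit 0, 15.7 CPM in layer 5-like unit 1 and 39.3 CPM in layer 6-like unit 0 of the Hippocampus. In the Cortex, Adarb2 was at 6.92 CPM in astrocyte-like unit 0, 36.4 CPM in Sst-like unit 2, 5.98 CPM in layer 5-like unit 2 and 14.7 CPM in unit 2 of Sst-like and Pvalb-like nuclei together. Each of these values was 1 UMI, apart from layer 6-like unit 0 with 3 UMIs. Adar was at 39.4 CPM in oligodendrocyte-like unit 0 of the Hippocampus, from 5 UMIs. Adarb1 was at 235.9 CPM in unit 2 of Sst-like and Pvalb-like nuclei of the Cortex, where the other units were at 154 to 163 CPM.

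The region effect of Adarb2 differed between the classes by -3.29 (log2, inhibitory minus excitatory neuron-like nuclei) in the test of the difference itself.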

How the results depend on the processing

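The cause of the changes below was not tested. Of 188 recomputed differences of the 3 genes, 171 kept their direction and side of the threshold, 16 changed sign without passing it, and 1 no longer passed. The Adarb2 difference kept its call under every run alternative in excitatory neuron-like nuclei (3.13 to 3.66 when 1 unit was left out), apart from the omission of dentate granule-like nuclei, which left it under the filter with no value. Over all nuclei it was 1.07 to 1.29 without single units, and it was 0.24 without thalamic-like, midbrain-like and dentate granule-like nuclei, the 1 alternative that ended its call. The Adarb2 interaction was -3.59 to -3.01 without single numbers. Over all alternatives run, the adjusted p of Adarb2 was 5.34e-09 to 0.478 over all nuclei, 1.16e-36 to 5.65e-05 in excitatory neuron-like nuclei and 2.06e-23 to 0.000105 for the interaction, and that of Adarb1 was 0.0548 to 0.845 over all nuclei and 0.0515 to 0.779 in excitatory neuron-like nuclei. Leaving out single units gave Adar -0.13 to 0.0105 and Adarb1 -0.0515 to 0.19 over all nuclei, Adar -0.0556 to 0.13 in excitatory, and Adarb1 -0.0276 to 0.15 and Adarb2 -0.0716 to 0.43 in inhibitory neuron-like nuclei. Adarb1 over all nuclei was -0.068 with numbers 1 to 3, -0.25 without thalamic-like and midbrain-like nuclei and -0.32 without dentate granule-like nuclei as well. Adar in excitatory neuron-like nuclei was -0.0287 with no filter, -0.0088 with 10 libraries and -0.0171 at resolution 1.0, and Adarb1 in inhibitory neuron-like nuclei was -0.0312 with no filter. The Adar level of oligodendrocyte-like nuclei was 87.5 CPM at resolution 1.0.

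Counts of called genes without single units were 1138 to 2505 in excitatory, 3 to 88 in inhibitory and 59 to 208 in astrocyte-like nuclei, and 167 to 355 for the interaction. With numbers 1 to 3 they were 4128 over all nuclei, 3433 in excitatory, 128 in inhibitory and 283 in astrocyte-like nuclei. With number 0 as a term they were 3665, 2992 and 73 for the first 3 of these. Excitatory calls were 522 without dentate granule-like nuclei. Inhibitory calls were 45 with no filter, 43 with the replicate block and 1 without doublets. Astrocyte-like calls were 1017 at resolution 1.0 and 191 at resolution 4.0, and interaction calls were 108 with no replicate block.

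Same-numbered units correlated at 0.43, 0.10, 0.02 and 0.03 for numbers 0 to 3. With the replicate block, the Adarb2 difference was 1.20 over all nuclei (adjusted p = 6.32e-05) and 3.43 in excitatory neuron-like nuclei, and no call of the 3 genes changed. Of 138 shares, 95 moved with the thinning. The inhibitory fit at resolution 1.0 was not run. Depth limits values resting on single UMIs.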
